A study of Caenorhabditis elegans with 2 samples.

Results

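At a divergent promoter, genes on opposite strands are transcribed away from each other out of the same stretch of DNA. The regions described here are the T20F7.1 peaks at such promoters. They were chosen by position alone: among the peaks the authors kept after ranking both replicates by irreproducible discovery rate (IDR), those on the 5 autosomes were kept whose summit lay from 500 bp upstream to 100 bp downstream of the start of at least 1 protein-coding gene on each strand. This rule found 273 peaks, of 2137 autosomal and 2586 IDR peaks in all. Chromatin immunoprecipitation with sequencing was done with an anti-GFP antibody on whole Caenorhabditis elegans of strain OP754, which carries the transgene wgIs754, a T20F7.1::TY1::EGFP::3xFLAG fusion with unc-119(+), on the unc-119(tm4063) background. The animals were L4 larvae of both sexes aged 48 hours, from cultures starved as L1 larvae after bleaching. There was 1 group with 2 biological replicates of this single transgenic line. No input or untagged control was analysed here, and tissues cannot be told apart in whole animals.

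The reference annotation gives T20F7.1 a zinc finger of the C2H2 class, which many DNA-binding proteins carry. In a divergent promoter a single open stretch of DNA can serve transcription in both directions, and genes for housekeeping functions are often arranged this way. Pre-mRNAs of many nematode genes are trans-spliced to a spliced leader, so that the annotated start can lie downstream of the true start of transcription.

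The sequences at the strongest of these peaks held a recurring pair of short words. Part A has the letters CGANNCTCC, in which N is any base, and part B has the letters TTGTTTA on the same strand, 10 to 40 bases further on. Part A followed by part B is called the element below. A further word, CGTAAATC (part C), was also followed. All 3 words were chosen after the sequences of the strongest members had been read, so their frequency among the members, their signal values and the share of matches with a peak are descriptions and support nothing. The windows below reach 60 bases to each side of the summit on the plus strand of ce11. They overlap no annotated UTR or coding exon, and capitals mark parts A, B and C whichever strand they are read on. The first set shows the element, in both orientations and, at B0524.6/pqn-41, with part A on both strands.
T23F6.3/rbd-1 (chrIV:12724786-12724906): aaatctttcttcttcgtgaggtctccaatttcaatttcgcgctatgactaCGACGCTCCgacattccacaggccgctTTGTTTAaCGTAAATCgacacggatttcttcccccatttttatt
dnj-22/natc-1 (chrV:8462216-8462336): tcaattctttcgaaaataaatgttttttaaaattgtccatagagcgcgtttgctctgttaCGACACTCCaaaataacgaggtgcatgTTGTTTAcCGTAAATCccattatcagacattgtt
M04B2.4/gfl-1 (chrIV:11521106-11521226): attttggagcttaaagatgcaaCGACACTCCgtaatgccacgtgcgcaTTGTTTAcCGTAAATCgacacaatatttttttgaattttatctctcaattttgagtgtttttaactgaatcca
ddx-46/F53H1.4 (chrIV:1309948-1310068): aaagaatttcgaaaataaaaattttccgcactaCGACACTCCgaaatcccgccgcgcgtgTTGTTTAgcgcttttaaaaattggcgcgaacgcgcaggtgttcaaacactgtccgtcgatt
rpt-2/aps-1 (chrV:6017754-6017874): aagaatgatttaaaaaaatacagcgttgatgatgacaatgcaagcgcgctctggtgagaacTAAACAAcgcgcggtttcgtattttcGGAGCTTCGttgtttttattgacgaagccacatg
rpb-12/aly-2 (chrIV:9147082-9147202): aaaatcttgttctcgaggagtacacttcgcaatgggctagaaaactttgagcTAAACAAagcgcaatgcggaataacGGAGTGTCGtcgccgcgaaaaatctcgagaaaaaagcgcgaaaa
B0524.6/pqn-41 (chrIII:1905754-1905874): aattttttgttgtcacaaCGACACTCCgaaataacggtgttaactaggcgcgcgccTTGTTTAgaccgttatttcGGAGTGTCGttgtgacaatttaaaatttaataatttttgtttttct

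The second set shows strong peaks in the same kind of promoter without the complete element. The windows of rpl-28/mrpl-49 and orc-5/cyb-1 hold part A and no exact part B, and those of mrps-7/Y57G11C.3 and rpl-20/Y17G9B.5 hold no part A.
rpl-28/mrpl-49 (chrV:12728403-12728523): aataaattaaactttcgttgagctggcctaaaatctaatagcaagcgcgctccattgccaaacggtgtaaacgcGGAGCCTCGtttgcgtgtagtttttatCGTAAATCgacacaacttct
orc-5/cyb-1 (chrIV:10734664-10734784): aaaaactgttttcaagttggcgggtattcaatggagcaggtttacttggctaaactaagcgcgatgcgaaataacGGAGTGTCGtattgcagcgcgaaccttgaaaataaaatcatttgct
mrps-7/Y57G11C.3 (chrIV:14767841-14767961): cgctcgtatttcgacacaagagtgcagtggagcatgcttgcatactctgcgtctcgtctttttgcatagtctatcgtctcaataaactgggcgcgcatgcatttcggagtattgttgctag
rpl-20/Y17G9B.5 (chrIV:4750003-4750123): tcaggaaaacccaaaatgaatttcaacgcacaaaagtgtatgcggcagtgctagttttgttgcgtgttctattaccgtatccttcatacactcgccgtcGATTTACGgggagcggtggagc

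Summits were dense in divergent promoter windows. Bases in the promoter windows of both strands made up 0.634 Mb, which is 0.767% of the autosomes and 6.55% of all promoter window sequence, yet they held 12.8% (95% Wilson interval 11.4 to 14.3) of the autosomal peaks and 26.2% of the 1041 promoter peaks. This is 431 summits per Mb, against 85.0 per Mb in bases covered by windows of a single strand (768 peaks, called unidirectional below). Outside promoter windows it was 15.04 per Mb (1096 peaks). The class goes by the summit, so a unidirectional peak can lie beside a gene that also has a divergent window. With windows of 1000 bp upstream and 200 bp downstream, 393 peaks were divergent. The density was 5.07 times that of unidirectional windows. Bases in windows of both strands lie near starts on both strands by construction, and the part of this in the density was not tested. No test was made, because 1 group of 2 replicates leaves nothing to compare over samples, and the intervals cover the sampling of peaks only.

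Most divergent promoters had no IDR peak. The windows of both strands formed 1715 separate stretches, of which 271 (15.8%) held a summit. The share was 19.9% (66 of 332) on chromosome I, 17.1% on IV, 16.9% on III and 13.7% on II. It was 12.6% (55 of 438) on V. With the 30000 pooled candidate regions in place of the IDR list, 455 stretches held a summit. A pair of stretches held 2 IDR summits each, both 199 bp apart. At fib-1/mut-15 the main summit had a signal value of 612 (replicates 304 and 308), and the other had 175 (replicates 118 and 39.1). At lpd-5/cec-10 the main summit had 551 (replicates 292 and 253), and the other had 128 (replicates 48.6 and 88.7). Fibrillarin, the product of fib-1, methylates ribosomal RNA in the nucleolus, and mut-15 acts in small RNA silencing.

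The signal value is the authors' deposited score of a region, on a scale that the sources do not give. It is used here to rank and describe peaks within a list. Divergent promoter peaks had a median of 258 in the pooled list, with quartiles of 153 and 683 and a range of 96.3 to 3618. The median was 163 at unidirectional promoter peaks and 130 outside promoters. In replicate 1 the medians were 131, 83.1 and 65.7, and in replicate 2 they were 132, 85.2 and 67.2. Divergent peaks therefore stood above unidirectional peaks by 1.59-fold in the pooled list, 1.57-fold in replicate 1 and 1.55-fold in replicate 2, while the ranges of the classes overlapped widely. The difference between the 2 replicates in this ratio is small beside the ratio itself. A −log10 q of at least 2 was reached by 205 of the 273 peaks (75.1%), against 46.5% of all autosomal IDR peaks and 54.2% of the unidirectional ones.

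**Figure D1:**
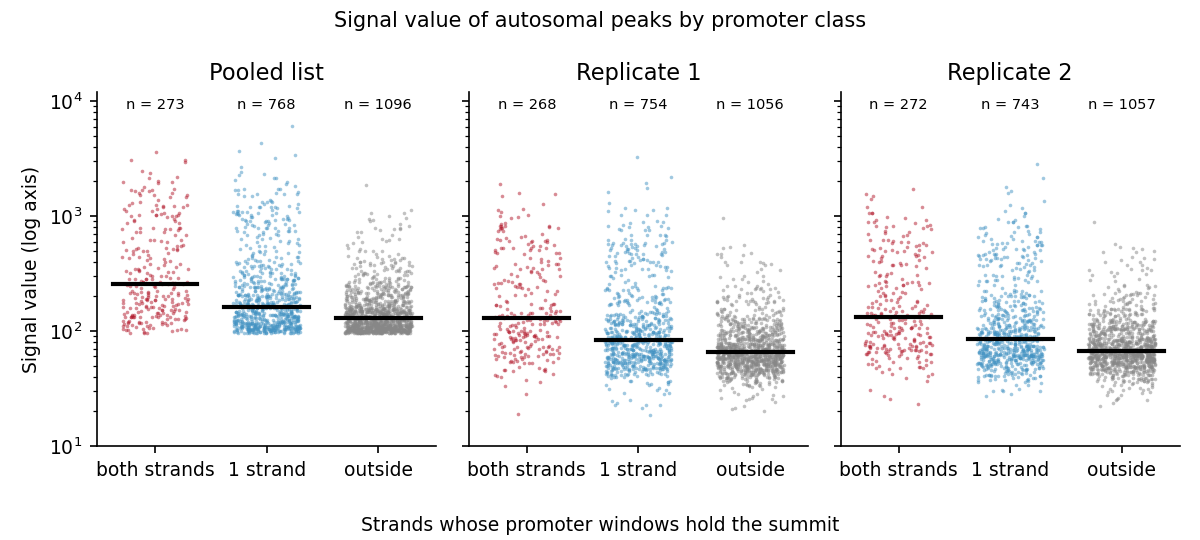
Signal value (log axis) of each autosomal IDR peak in the pooled list and of the nearest summit within 100 bp in each replicate, by whether the summit lies in promoter windows of both strands, of 1 strand or of none. Black bars are medians; the divergent class has the highest median in each panel (258, 131 and 132) and its points overlap with those of the other classes.

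The share of divergent promoters rose with signal rank. In the weakest 20% of autosomal IDR peaks 3.505% (95% interval 2.14 to 5.70) lay at divergent promoters, and the next groups had 5.85%, 10.3% and 14.3%. The strongest 20% had 29.9% (25.8 to 34.4). Unidirectional promoters rose less steeply over the same groups, from 29.4% to 47.2%, so that divergent promoters went from 10.6% to 38.8% of promoter peaks. Among the 50 strongest autosomal peaks 23 were at divergent promoters, and among the 100 strongest 42 were. The 2137 autosomal candidates ranked just below the list had 2.43%, and the next such groups had 1.36% and 1.12%.

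The replicates gave close values at the members. The IDR list keeps peaks by their agreement between these same replicates, so this closeness is partly set by the choice of peaks. A summit lay within 100 bp in both replicate lists for 267 of the 273 peaks. Over these, replicate 2 relative to replicate 1 was -0.02 in the median on the log2 scale, with an SD of 0.40, and 259 lay within 2-fold. At unidirectional peaks the SD was 0.45, and outside promoters it was 0.50. The largest differences were at weak peaks. The peak of par-5/M117.3, a pair of neighbouring genes for 14-3-3 domain proteins, had 18.97 in replicate 1 and 85.0 in replicate 2. That of gad-1/erfa-1, the latter a translation release factor gene, had 35.96 and 93.0, and that of mat-1/prp-31 had 28.1 and 56.5. In the other direction W01A8.2/plin-1 had 74.4 in replicate 1 and 23.3 in replicate 2, and rde-8/ZC477.3 had 111 and 40.8. The weaker fib-1/mut-15 summit given above is the remaining one of these 6. The members without a match in replicate 1 were dnsn-1/C24H12.4 (pooled signal value 361), glp-4/Y87G2A.16 (174), sec-61.A/rps-18 (159), sas-6/Y45F10D.7 (133) and nucl-1/daf-31 (113). The peak of exoc-7/tufm-2 (117) had none in replicate 2. The weakest members were W01A8.2/plin-1 (100.3), mat-1/prp-31 (98.3), ragc-1/Y24F12A.1 (96.8), F49C12.9/rpn-7 (96.6) and snpn-1/C02B10.4 (96.3).

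**Figure D2:**
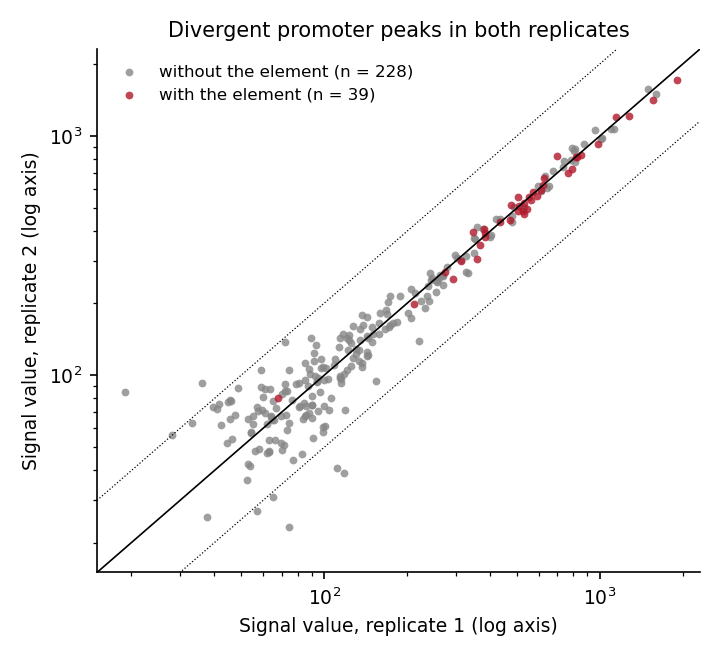
Signal value of each divergent promoter peak in replicate 1 and replicate 2 (both log axes), for the 267 peaks matched in both. The solid line marks equal values and the dotted lines 2-fold differences; 259 points lie between the dotted lines, and 38 of the 39 peaks with the element have at least 199 in both replicates.

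The highest signal value among the members, 3618 (replicates 1908 and 1715), was at chromosome II, 98157. It ranked 4 in the IDR list, whose autosomal maximum of 6064 was at a unidirectional peak. This member lay between luc-7L3 and sftb-6, which encode a Luc7-like protein and subunit 6 of splicing factor 3B. Both products belong to the splicing machinery. The summit lay 130 bp upstream of luc-7L3 and 247 bp upstream of sftb-6. Its element lies beyond the 60 bases shown for other members, so its window is not printed. The peak of mrps-7/Y57G11C.3 had 3086 (replicates 1593 and 1490), and it lies between genes for a mitochondrial small ribosomal subunit protein and a putative 6-phosphogluconolactonase. That of pri-2/W02D9.2, the former encoding the large subunit of DNA primase, had 3052 (replicates 1488 and 1568). T23F6.3/rbd-1, the latter encoding an RNA-binding protein of ribosome biogenesis, followed with 2967 (replicates 1558 and 1412). The next was rpt-2/aps-1, at 2484 (replicates 1275 and 1207), with its summit 145 bp and 156 bp upstream of a proteasome ATPase gene and a clathrin adaptor gene. At each of these peaks both replicates were far above the medians of their lists.

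The other members among the 20 strongest ranged from 2354 to 1590. For protein synthesis these were rpl-28/mrpl-49 (2185), Y55F3AM.13/mrps-25 (1997), farl-11/rpl-33 (1981), rpl-15/K11H12.8 (1704), rpl-20/Y17G9B.5 (1673) and F54C4.4/mrpl-40 (1670). The first of these joins a cytoplasmic and a mitochondrial ribosomal protein gene. RNA polymerase subunit genes were at rpb-12/aly-2 (1920; replicates 983 and 927), beside a gene of mRNA export, and at pas-4/rpb-3 (1695), beside a proteasome subunit gene. The peak of orc-5/cyb-1 (1798; replicates 879 and 929) lies between genes for an origin recognition subunit and a mitotic B-type cyclin, and its summit is 136 bp upstream of the former and 492 bp upstream of the latter. Purine and RNA metabolism had gmpr-1/fipp-1 (2016), GMP reductase beside a polyadenylation factor gene. The remaining ones were Y39B6A.3/pph-5 (2354), F10E9.7/F10E9.5 (2158), dnj-22/natc-1 (1646), abhd-11.2/nsph-1.2 (1644) and Y38E10A.33/cox-10 (1590). A peak in such a promoter cannot be given to either gene alone.

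In 250 of the 273 members (91.6%) the summit was upstream of both genes, and in 23 it was downstream of a start. The starts were a median of 393 bp apart (quartiles 251 and 570). In 70 members (25.6%) the summit lay within 50 bp of a start. The nearer start was a median of 129 bp from the summit and the farther one 271 bp. The summit lay a median of 193 bp upstream of the minus-strand start and 177 bp upstream of the plus-strand start. At unidirectional peaks the nearest start was at a median of 191 bp. The 129 bp is the smaller of a pair of distances by construction, so it cannot be set against the 191 bp. On a scale from 0 at the minus-strand start to 1 at the plus-strand start, summits between the starts had a median of 0.53 (quartiles 0.38 and 0.65). The nearer gene was on the minus strand in 122 members and on the plus strand in 151. The window rule bounds these distances and, for starts far apart, forces the summit to lie well between them, so these values are a description only.

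**Figure D3:**
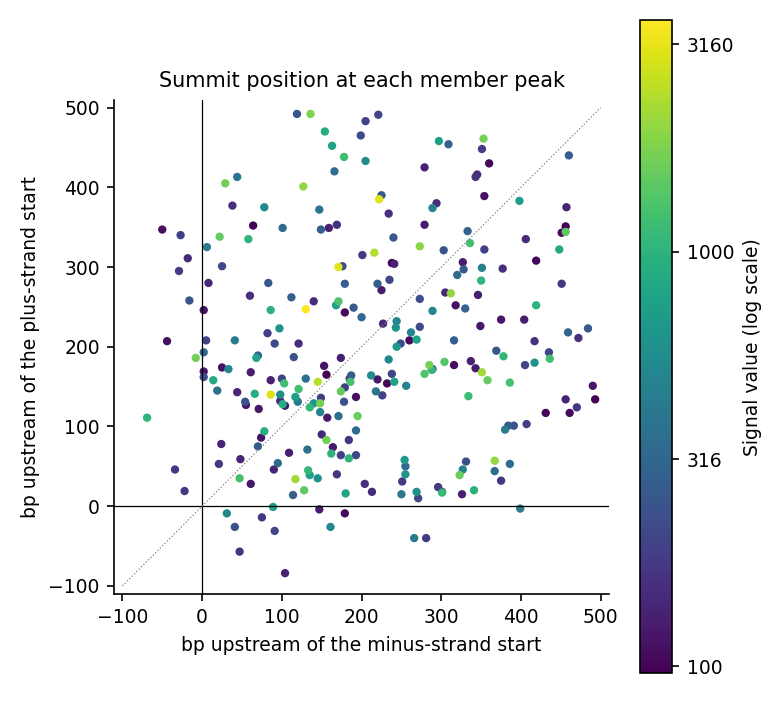
Distance of each member's summit upstream of the minus-strand start (horizontal axis, bp) and of the plus-strand start (vertical axis, bp), coloured by signal value on a log scale. Negative values are downstream of a start, the dotted line marks equal distance, and 250 of 273 points lie in the quadrant upstream of both genes.

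Of 1749 pairs of starts with overlapping windows, 275 shared a summit. The share was 16.9% (41 of 242) below 200 bp, 21.7% (99 of 457) from 200 to 400 bp, 20.2% (78 of 386) from 400 to 600 bp and 14.3% (50 of 350) from 600 to 800 bp. It was 1.80% (5 of 278) from 800 to 1000 bp, where the windows share a mean of 106 bp against 497 bp for pairs 200 to 400 bp apart. Per kb of shared window the order differed, with 0.507 summits for pairs 0 to 200 bp apart, 0.440 from 200 to 400 bp, 0.404 from 400 to 600 bp, 0.470 from 600 to 800 bp and 0.170 beyond. Where starts overlapped, 2 of 36 pairs had a peak, at aptf-2/pik-1 (166) and rpb-7/Y54E10BR.2 (171). The next shortest distance was 12 bp, at F32D8.14/F32D8.5 (175). The widest pairs were sqv-3/vha-1 (900 bp, signal value 269), kgb-1/T07A9.12 (832 bp, 139) and rpl-15/K11H12.8 (814 bp, 1704).

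Some summits lay close to the limit of the rule. The members nearest to it were mat-1/prp-31 (7 bp inside, 98.3), orc-5/cyb-1 (8 bp, 1798) and snx-13/snr-1 (8 bp, 246). Just outside were the peaks of T16G1.18 (1 bp, 342), rps-1 (2 bp, 919) and dcn-1 (3 bp, 1631), each in the window of the named gene alone. Non-coding genes other than piRNA genes lay within 250 bp of the summit at 33 members. In 31 of these the type was ncRNA, and 2 had a small nucleolar RNA gene, at tmem-107/rps-26 (395) and chst-1/C41C4.9 (151).

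In all, 546 of 17242 autosomal protein-coding genes (3.17%) had a divergent promoter peak, and these were 15.8% of the 3449 genes with a divergent window. A promoter peak of either kind was found at 1302 genes (7.55%), and at 46 of 80 cytoplasmic ribosomal protein genes. Of the 27 lists, cytoplasmic ribosomal protein genes had the highest share, with such a peak at 27 of 80 (33.8%, 24.3 to 44.6), led by rpl-28, rpl-33 and rpl-15, and 48 of the 80 had a divergent window at all. Their partner was another ribosomal protein gene in 3 peaks: rps-14/rpl-36 (502; replicates 256 and 248), rps-10/rpl-24.1 (344; 167 and 187) and rpl-39/rps-30 (289; 135 and 156). At the 21 peaks shared with another kind of gene, the ribosomal protein gene was the nearer one in 6, with the summit a median of 289 bp upstream of it and 177 bp upstream of its partner. With a window of 250 bp upstream to 50 bp downstream of each start, only 4 ribosomal protein genes (5.00%) had a divergent promoter peak, which is 3.68 times the share of all autosomal genes and below the 8.93 times of proteasome genes. Counting only the nearest start on either strand left 9, at 7.11 times the share of all genes, against 10.7 times under the main rule.

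Respiratory chain and ATP synthase genes, with their assembly factors, had a divergent promoter peak at 18 of 74 (24.3%, 15.98 to 35.2). With the narrower window 7 had one, and counting only the nearest start 9 did. Under these settings 1.36% and 1.58% of all autosomal genes had one, against 3.17% under the main rule. The list stood at 6.97 and 7.68 times these shares, and at 7.68 times under the main rule. The strongest in the list were cox-10 (1590), a protoheme farnesyltransferase of the heme pathway that serves cytochrome oxidase, cox-6C (1479), a subunit of that oxidase, and sdhd-1 (1256; replicates 653 and 618), a succinate dehydrogenase subunit. The lists go by gene name and missed some genes of the same function, such as R04F11.2 for ATP synthase subunit e, whose peak had 1577 (replicates 783 and 796). In the tricarboxylic acid cycle and pyruvate dehydrogenase 4 of 25 had one: dlat-1/fntb-1 (991; replicates 474 and 516), sdhb-1/cup-15 (618), aco-2 beside the elongation factor gene eef-1B.1 (442) and mdh-2. Mitochondrial ribosome genes had 9 of 70 (12.9%; 5 with the narrower window), and translation factors and tRNA synthetases 9 of 76 (11.8%; 3 with that window and 6 with the nearest start alone). The latter were led by eef-1A.1/rfc-4 (1253; replicates 644 and 604), pbs-2/eif-6 (1216; replicates 598 and 620) and ctf-4/eef-1G (600). None of the 20 mitochondrial protein import genes had one (at most 15%), and only 2 have a divergent window.

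Proteasome genes had a divergent promoter peak at 9 of 33 (27.3%, 15.1 to 44.2). The strongest were those of rpt-2, pas-4 and pbs-2. With the narrower window, or with the nearest start alone, 4 had one. This was 8.93 and 7.66 times the share of all genes, against 8.61 times under the main rule. The 20S core gene pbs-2 shares its peak with eif-6, a ribosome maturation factor, and the regulatory particle gene rpn-3 shares one with the chaperone gene hsp-110 (683; replicates 348 and 325). Ubiquitin conjugation genes had 6 of 81 (7.41%), led by rbx-2/ncbp-1 (939; replicates 479 and 461), a ligase subunit beside the cap-binding protein gene, and then ubh-4 (498) and ubc-6 (458). Chaperone genes had 12 of 86 (13.95%; 5 with the narrower window, 3 with the nearest start alone), with dnj-22, cct-8 (1200), a subunit of the chaperonin that folds actin and tubulin, and cyn-15 (984).

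Among genes of RNA metabolism, splicing and pre-mRNA processing had 13 of 79 (16.5%, 9.9 to 26.2; 6 under either of these settings). The strongest in the list after luc-7L3/sftb-6 were rnp-5 (678; replicates 357 and 306) and rsp-2/rsp-1 (499; replicates 257 and 246), neighbouring genes for SR splicing factors. The splicing factor genes ess-2 (1202; replicates 612 and 595) and gut-2 (1111; replicates 552 and 553) had stronger peaks but bear names outside the list. Genes of tRNA and rRNA processing and ribosome assembly had 7 of 45 (15.6%), with rbd-1, nol-10 (1378) and fib-1. Those of the mRNA cap, export and decay had 4 of 53: aly-2, ncbp-1, nxf-1 (282), the main mRNA export receptor, and exos-3. General transcription machinery genes had 4 of 85 (4.71%), all of them RNA polymerase II subunits: rpb-12, rpb-3, rpb-7 and rpb-4.

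DNA replication and repair genes had 6 of 68 (8.82%), with pri-2, orc-5 and rfc-4. Cell cycle genes had 7 of 75 (9.33%; 3 under either setting), with cyb-1, the Aurora kinase gene air-1 (873; replicates 435 and 436) and emb-27 (638). Vesicle trafficking genes had 11 of 124 (8.87%; 5 under either setting), with aps-1, sec-5 (1466), an exocyst subunit, and sec-61.B (872). V-ATPase and autophagy genes had 3 of 48, all V-ATPase subunits (vha-8 at 345, vha-1 at 269 and vha-17 at 199). In 14 of the 27 lists the share was at least 2 times the 3.17% of all genes. This comparison does not allow for how often the genes of a list have a divergent window. Such a window was found at 52.9% of DNA replication and repair genes and 63.6% of proteasome genes, against 3449 of all 17242 genes. Among genes with such a window, a peak was found at 16.7% and 42.9% in these lists, against 15.8% of all genes.

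The shares of cuticle collagens and chemoreceptors were below the 3.17% of all genes. No cuticle collagen gene of 145 had one (0 of 145 leaves room for at most 2.07%), although 21 of them have a divergent window, and 1 had such a peak in the list of either replicate alone. For muscle genes it was 0 of 33 (at most 9.09%, which is above the share of all genes), with a divergent window at 2. Chemoreceptors had 3 of 1276 (0.235%; 130 have a divergent window), the strongest being srd-4 beside usip-1, a U6 snRNA uridylyltransferase gene (726; replicates 350 and 375). Among F-box and MATH-BTB genes 7 of 395 had one (1.77%), led by bath-41 (793), fbxc-54 (526) and fbxb-85 (286), with fbxa-67/fbxa-11 (111; replicates 40.96 and 72.1) as a pair of 2 such genes. Nuclear hormone receptors had 3 of 247, of which 19 have a divergent window, so that their share of those (15.8%) equals that of all genes with such a window. These were nhr-47 (427), nhr-68 (326) and nhr-142 (305). Histone genes often lie head to head, and 61 of 77 have a divergent window, but only his-61/his-62 (187; replicates 96.9 and 85.3) had a peak. Homeobox factors had 1 of 76 (ceh-38, 428), neuropeptides and insulins 1 of 108 (nlp-4, 156) and neuronal synapse genes 1 of 42 (ric-19, 1298). Germline genes had 2 of 68 (2.94%, close to the 3.17% of all genes). These were syp-2 (1025), a synaptonemal complex component, and nos-3 (191). Both genes were in the lists in 35 members, 1 gene was in 99 and neither in 139. In 7 members both genes were of the same list.

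**Figure D4:**
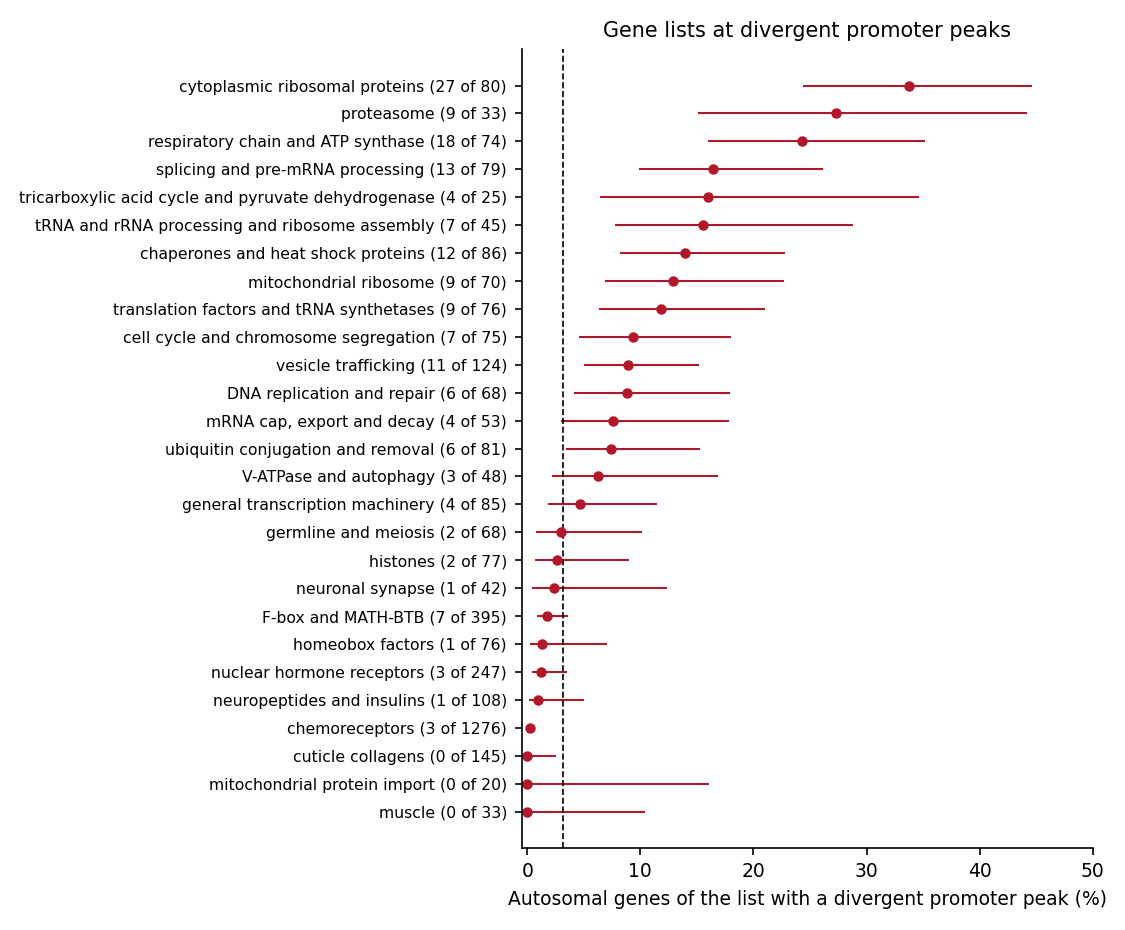
Share of the autosomal genes of each list with a divergent promoter peak (%), with 95% Wilson intervals and the counts in the labels. The dashed line is the 3.17% of all autosomal protein-coding genes; cytoplasmic ribosomal proteins lie highest (33.8%) and cuticle collagens, mitochondrial protein import and muscle at 0.

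The sequence around the summits was compared with that of the same members 300 to 400 bp away on both sides (546 flank windows). Words of 6 bases were counted on both strands, up to 50 bp from each summit. Taking at least 3 flank windows for every ratio, the largest ratios among words at 5% or more of members were those of GCGCGC (9.52% against 0.549%, 17.3-fold), GCCAGC (8.06% against 0.549%) and ACACTC. The last, found at 62 members (22.7%, 18.1 to 28.0) and in 1.83% of flanks, is contained in the most frequent form of part A. It was at 13.4% of unidirectional peaks and in 2.91% of the centres of 1304 divergent stretches without a peak. CGCACA was at 12.8% of members and 1.10% of flanks, ACGCGC at 16.1% and 1.47%, CGACAC at 17.2% and 1.65%, ACACGC at 14.7% and 1.47%, and ATGCGC at 13.6% and 1.47%. CGCGCG (5.86%) had 0 and ACCCGC (5.49%) 1 flank window, and their ratios are lower bounds. In the centres of divergent stretches without a peak, shares of the words named here ran from 1.30% (ACCCGC) to 4.52% (ACGCGC), with 3.30% for GCGCGC. At unidirectional peaks they ran from 1.95% (ACCCGC) to 14.3% (ACGCGC). Since the farther start was a median of 271 bp from the summit, many flanks lie inside genes. The flank ratios therefore do not compare promoters with promoters. The overlapping words share letters and are not separate results. Base composition moved with class: the sequence up to 50 bp from the summit had a median GC content of 42.6% at members, 38.6% at unidirectional peaks and 37.6% outside promoters, and its part in these ratios was not tested.

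Part A lay within 100 bp of the summit at 65 members (23.8%, 19.1 to 29.2), and the complete element at 39 (14.3%, 10.6 to 18.9), against 4.63% of all autosomal IDR peaks. It was at 6.25% of unidirectional peaks and 1.09% of peaks outside promoters, and 1 of the 1304 divergent stretches without a peak held it around the centre (0.0767%). Members with the element had a median signal value of 1062 (replicates 530 and 526) and those without it 214 (114 and 108), a difference that choosing the words from the strongest members favours. At unidirectional peaks the medians were 1004 and 158. Those without part A had 197 at divergent and 147 at unidirectional promoters. Of the 50 strongest members 39 had part A and 25 the element. Of the 173 members below the strongest 100, 4 had part A and 1, W03C9.1/W03C9.2 (144; replicates 68 and 80), the element.

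The spacing of the element was narrow. Part B began 18 bases after the end of part A in 18 members and 19 bases after it in 15. The base before part A was A in 38 of 39 members and the base after it G in 35. The free positions of part A were CA in 26 members, as shown above at dnj-22/natc-1, M04B2.4/gfl-1 and ddx-46/F53H1.4, TG in 4 and CG in 3. GCG lay between the parts in 32. Part C was near the summit in 14 of the 39 and began within 5 bases of the end of part B in 12, as at T23F6.3/rbd-1. The element read towards the plus-strand gene in 19 members and towards the minus-strand gene in 20, and towards the nearer start in 21. The summit lay a median of 21 bp past the centre of part A along the element (quartiles 9 and 29). This median falls between the parts, but single summits lay before part A or past part B. The summit was past the centre of part A in 32 of 39 members. The medians were 18 bp and 19 bp for the summits of replicates 1 and 2. All 39 summit windows were free of 30-base sequences found elsewhere in the nuclear genome, as were 267 of the 273 member windows. At ruvb-1/tofu-1 (182) all of the window was repeated.

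All autosomal matches to the element were also listed. Since its words came from the strongest divergent peaks, the shares by class are not independent of that choice. Of 43 matches in divergent promoter windows, 39 had an IDR summit within 100 bp (90.7%, 78.4 to 96.3). The share was 48 of 70 (68.6%, 57.0 to 78.2) in unidirectional windows and 12 of 129 (9.30%, 5.40 to 15.6) outside promoters. Part A without part B had a summit at 31 of 67 matches (46.3%) in divergent windows, 64 of 608 (10.5%) in unidirectional windows and 31 of 4478 (0.692%) elsewhere. On X, whose peaks are not among the members, 3 of 3 matches in unidirectional windows and 2 of 7 elsewhere had a summit within 100 bp.

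**Figure D5:**
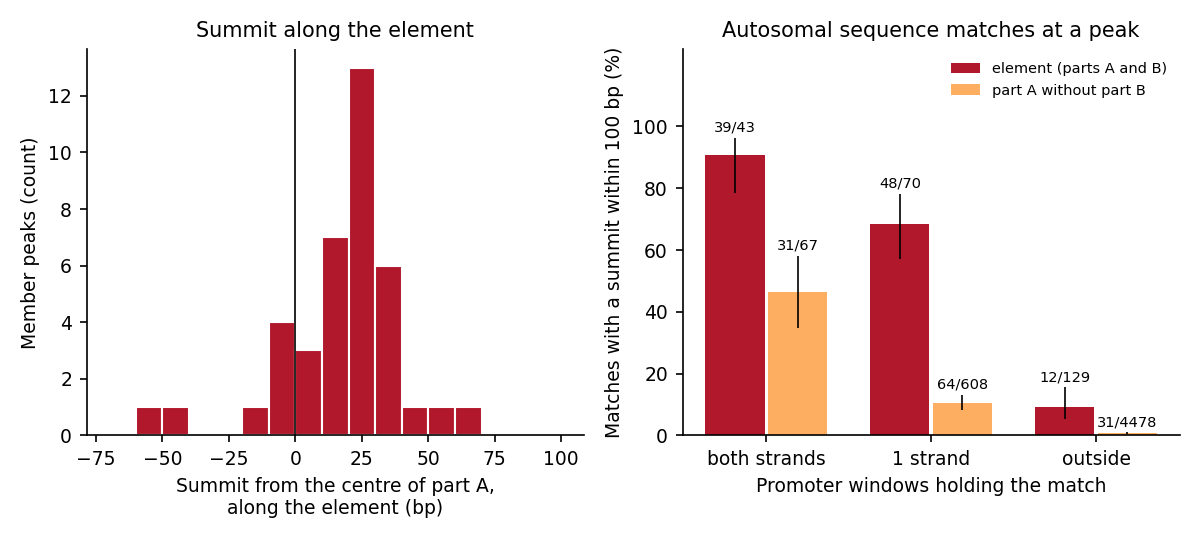
Left, number of the 39 members with the element by the distance of the summit from the centre of part A (bp), positive in the direction of part B; most lie from 10 to 40 bp. Right, share of autosomal sequence matches with an IDR summit within 100 bp (%), with 95% Wilson intervals and counts, by the strands whose promoter windows hold the match: 90.7%, 68.6% and 9.30% for the element.

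The element's count in each gene list can be set beside the 14.3% of all members. Of the 24 peaks at cytoplasmic ribosomal protein genes 0 had the element (at most 12.5%), and 5 had part A, among them rpl-28/mrpl-49. Peaks at mitochondrial ribosome genes (0 of 8, at most 37.5%) and at translation factor and tRNA synthetase genes (0 of 9, at most 33.3%) had none, with part A at 2 and 1. Respiratory chain and ATP synthase genes had the element at 5 of 19 peaks, proteasome genes at 2 of 9, splicing genes at 2 of 11 and general transcription machinery genes at 2 of 4. At the 208 members without part A the largest ratios were those of CGCACA (14.4% of these members against 0.962% of their flanks), GCCAGC (9.13%, with a ratio that is a lower bound), ATGCGC (14.9%) and GCACAC (14.4%). All but GCACAC were named above for the whole set. At unidirectional peaks without part A these words had 5.76%, 4.55%, 5.61% and 8.03%. In the centres of divergent stretches without a peak they had 3.53%, 2.53%, 2.99% and 5.52%. Whether the difference in the element between gene lists exceeds chance was not tested.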

How the data were processed

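Peak lists on ce11 (the WBcel235 sequence) were used as the authors deposited them: candidate regions of each replicate and of the pooled replicates, 30000 per list, and the IDR list. The signal value and the −log10 q-value are those in the authors' deposited lists. The sources used here do not give the peak caller, aligner, versions or signal scale, so values were compared only within a list. Read depth is unknown, since the lists hold no counts, and intervals do not cover sequencing error. The labels list the replicates as separate biosamples of 1 strain.

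A summit is the region start plus the deposited offset. Gene starts came from Ensembl release 115, product names from RefSeq annotation, and sequences from the RefSeq copy of WBcel235. Replicate values are those of the nearest summit within 100 bp. Gene lists, 27 in number, were patterns of gene names and are not complete. The members, the lists and the sequence parts were chosen with earlier results of these data known. Patterns were corrected after the peaks were seen: some had matched wrong genes (bub-3 as a splicing gene, for example), and others had missed luc-7L3 and rpl-36.A.

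Named genes are those at the 20 strongest members, up to 3 of the strongest per list, pairs within a list, and the extremes of distance, replicate difference and signal. The 11 printed windows were chosen from the strongest members off chromosome I after they were seen, as were other genes named outside this rule. No hypothesis test was run. Shares carry 95% Wilson intervals, and a count of 0 is given with the limit of 3 counts. Python 3.11.15, numpy 2.4.6, pandas 2.3.3 and matplotlib 3.10.9 were used, and window, element and word searches were tested on simulated data.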

Additional observations from a re-analysis of the deposited data

How the results depend on the processing

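With windows of 250 bp upstream and 50 bp downstream, 116 peaks were at divergent promoters, in 12.8% of stretches. With these windows their median signal was 1.499 times and their density 6.06 times that of unidirectional promoters. Windows of 1000 and 200 bp gave a density of 3.84 times. Transcript starts gave 1.69 for signal and 5.29 for density. The stronger 50% of the list gave 12.4% of stretches, 1.36 and 6.88, and a −log10 q of at least 2 gave 11.9%, 1.40 and 7.03. Summits between starts that face away gave a density of 6.24 times. Either replicate was also left out by taking the 2586 strongest candidates of the other in place of the IDR list. Members then numbered 284 to 285, and 16.3% to 16.4% of stretches held a peak. Signal was 1.48 to 1.56 times and density 5.31 to 5.34 times that of unidirectional promoters. Every one of these ratios stayed above 1. The number of words at 5% or more of members with a ratio of at least 5 was 45. It was 17 with 100 bp to each side and 72 in the stronger 50% of members. With the same members and windows placed at the summits of a single replicate it was 36 to 47. The element was at 35 to 40 members under other spacings and distances, chosen after seeing the data. In 52 alternatives for single gene lists no share crossed that of all genes, and 23 counts moved by over 1.5 times, mostly with the narrow window or the nearest start alone. Both settings also lowered the number of all autosomal genes with such a peak, from 546 to 234 and 273. A fall in the counts of the lists is therefore built into these settings. Why some counts fell further than that of all genes, as for cytoplasmic ribosomal protein genes, was not tested. No paired analysis was possible because there is 1 group.

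The lists give signal values and ranks without counts, so weak peaks cannot be weighed by depth, and a promoter without an IDR peak is not shown to be unbound. With no control analysed here, a signal that any tagged protein would give cannot be told apart from binding by T20F7.1.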
